A study of Mus musculus with 38 samples.

Results

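The RNA described here came from mouse zygotes arrested in the first mitotic M-phase (zygote M), split on a sucrose gradient into a polysome and a non-polysome fraction. These samples were chosen by their names in the deposited table, and they make up 6 of the 38 samples of the series, 3 polysome libraries (A, B and C) against 3 non-polysome libraries (A, B and C). The series covers 6 stages, namely GV oocytes, MII oocytes, zygotes in interphase and in M-phase, and embryos of the two-cell stage in either phase (two-cell and two-cell M), and asks how translation moves between cell cycle phases. Mice were of the ICR strain and at least 6 weeks old, and the females had received gonadotropins before mating with males of the same strain. Zygote M embryos had been held in 10 µM nocodazole, a microtubule poison that arrests cells in M-phase, whereas interphase zygotes had pronuclei and were collected at isolation without it. Two-cell M embryos had received nocodazole as well. MII oocytes had matured in culture, and no nocodazole is stated for them. Their isolation medium had held IBMX, which was used to prevent spontaneous meiotic resumption. M-phase zygotes without nocodazole are not analysed here, so the drug, the time in culture and the cell cycle phase cannot be told apart. The sample labels call this treatment a meiotic M-phase, while the methods of the study place the embryos in mitosis. Cells were treated with cycloheximide before lysis, which the methods of the study write for oocytes. Each library is a bulk sample of embryos, and how many embryos stand behind a letter was not given in the sources used here. Both fractions were cut from each gradient and the letters number the replicates, so libraries of the same letter were also compared as pairs. The p-values below set each difference against the spread between these libraries, which values at the lower limit of the table cannot show.

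A polysome is an mRNA that carries several ribosomes at once, and it sediments into the heavy part of a sucrose gradient. RNA in the light part is free, bound to proteins, or held by single ribosomes or ribosomal subunits. The fertilised egg transcribes little before genome activation, so it lives on maternal mRNA, which it stores, lengthens or shortens at the poly(A) tail, recruits to ribosomes and degrades. Entry into M-phase lowers overall protein synthesis in many cells, while some mRNAs for the machinery of mitosis are recruited at that time.

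The table gives FPKM (fragments mapped to a gene, scaled to its exon length and to the depth of the library) for 23125 genes, and 0.01 is the lowest value in every library. Summed FPKM lay between 106167 and 123594 in the 6 libraries. Between 8312 and 9521 genes sat at 0.01 in the polysome libraries, and between 11032 and 12065 in the non-polysome libraries. Polysome libraries resembled each other more (Pearson r across the tested genes 0.836 to 0.910) than non-polysome libraries did (0.587 to 0.635), and the latter correlated with the polysome libraries at 0.624 to 0.724. Genes are not independent replicates in these correlations. FPKM is relative to each fraction's own total, so RNA that moved between the fractions as a whole is not seen, and in these bulk samples fewer embryos and less RNA per embryo cannot be told apart. All 12 egg and zygote markers were present, with a sum of 579 to 988 FPKM in polysomes and 749 to 1128 FPKM outside them. None of the 13 cumulus and granulosa markers passed the minimum level, and their sum stayed between 0.135 and 0.260 FPKM. The 6 sperm markers, of which 2 passed, summed to 1.64 to 4.17 FPKM. None of the 7 oviduct epithelium markers passed, and they summed to 0.451 to 0.767 FPKM in polysomes and 0.07 to 0.149 FPKM outside them. Krt8 held most of the polysome sum, at 0.475, 0.694 and 0.391 FPKM against 0.01 in every non-polysome library, and the defining marker Ovgp1 was at 0.01 in all 6. Krt8 was also called higher in the difference from interphase zygotes described further on (4.13% of all genes tested there). The 6 blood cell markers, of which 1 passed, summed to 7.83, 15.6 and 4.67 FPKM in polysome libraries A, B and C and to 30.9, 0.227 and 9.48 FPKM in the non-polysome libraries. Cd68 and, in non-polysome library A, Lyz2 held most of that sum in 5 of the 6 libraries, and no globin gene was above 1.30 FPKM in any of them. The part of such RNA in the results was not tested.

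Few genes passed the test between the fractions, and most of those that did at substantial levels were lower in polysomes. They included Tcl1b1, the linker histone genes Hist1h1a and Hist1h1e, the histone variant gene H3f3b, the chaperone gene Hsp90aa1 and the cell cycle gene Cks2. Ferritin heavy chain mRNA (Fth1) stood out on the other side, 3.80-fold higher in polysomes. The word called stands for a limma p below 0.05 after Benjamini-Hochberg adjustment together with a fold change above 2. Of 7601 genes whose geometric mean over the 6 libraries reached 0.1 FPKM, 69 were called higher in polysomes (0.908%) and 31 lower (0.408%), 1.32% in all. An unadjusted p below 0.05 was found for 1123 genes. With the letter as a replicate block no gene was called, with 1190 at an unadjusted p below 0.05, and the adjusted p from limma became 0.0588 for Fth1, 0.0731 for Arl6ip1 and 0.0769 for Hsp90aa1. Every call between the zygote M fractions given below is from the fit without that block. Leaving out any 1 of the 3 polysome libraries ended every call, with 714 to 793 genes at an unadjusted p below 0.05, whereas without non-polysome library A, B or C there were 168, 126 or 225 calls.

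The 2 directions differed in level. Of the 31 genes called lower, 28 had a mean of at least 10 FPKM in one fraction, compared with 5 of the 69 called higher. In 63 of the 69 the non-polysome libraries were all under 0.1 FPKM, and in 31 of them all at 0.01. Such genes had entered the test through their polysome level alone, and their fold changes rest on the floor of the table. Values all at 0.01 show no spread between libraries, so the p-values of those 31 rest on the floor as well. The SD of deviations from the fraction mean was 0.744 to 1.01 log2 units in polysome libraries. In non-polysome libraries it was 1.71 to 1.92, while the fit used 1 variance per gene for both fractions. Of the 31 called lower, 20 were also called lower in interphase zygotes, 1 in MII and 2 in two-cell M. Of all genes tested at those stages, 12.4%, 4.11% and 0.964% were called lower. Of the 69 called higher, 8, 3 and 0 were called higher at these stages, next to 3.64%, 1.21% and 0.585% of all genes tested. Groups that did not overlap were found for 908 tested genes on the polysome side (11.9%) and for 875 on the other (11.5%). The plot of difference against level shows the called genes in separate regions.

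**Figure D1:**
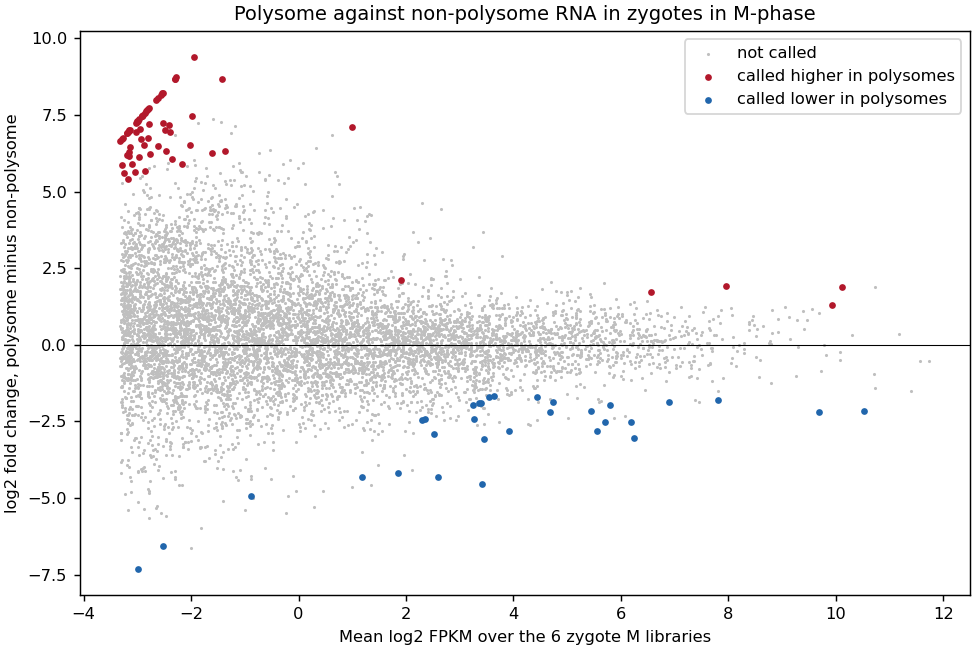
Each point is 1 of 7601 genes, with its mean log2 FPKM over the 6 zygote M libraries on the x axis and the log2 fold change of polysome over non-polysome on the y axis. Most of the 69 genes called higher lie at low levels, whereas 28 of the 31 called lower have a mean of at least 10 FPKM in one fraction.

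Short sequences are shown for 5 mRNAs that the results turn on, because each holds a motif through which mRNAs of its kind are known to be regulated. They are printed 5′ to 3′ on the mRNA strand from GENCODE M21 transcripts (GRCm38), with the searched letters in capitals. Only the mRNA strand was searched, and N stands for any base.
Fth1 5′ UTR: ggtttcctgCTTCAACAGTGCttgaacgga
Hist1h1a 3′ UTR: tataaataacccaacGGCTCTTTTCAGAGC
Hist1h1e 3′ UTR: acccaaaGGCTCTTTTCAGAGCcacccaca
Cdc20 3′ UTR: ttcctttcttgtTTTTATTTTATtttttct
Fpgs 3′ UTR: gcttttaaacccTTTTATtTTTTATttttt

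The Fth1 stretch lies at chr19:9982729-9982758 on the plus strand. Its capitals match C, any 5 bases and then CAGTGN, the letters of the bulge and loop of an iron-responsive element, to which iron regulatory proteins bind and block ribosome loading of ferritin mRNA. The same letters occur in 8.75% of the 5′ UTRs of tested protein-coding genes, so they are far from specific. Hist1h1a (chr13:23764377-23764406 on the plus strand) and Hist1h1e (chr13:23621775-23621804 on the minus strand) carry GGCNC, TTTT and NAGNGC in 1 run, the histone stem-loop that takes the place of a poly(A) tail, in the first 100 bases of their 3′ UTRs. Only 19 of 5850 tested protein-coding genes (0.325%) have these letters in that window. The Cdc20 stretch (chr4:118432923-118432952 on the minus strand) and the Fpgs stretch (chr2:32682637-32682666 on the minus strand) each hold TTTTAT, a cytoplasmic polyadenylation element, more than once in the last 100 bases. TTTTAT or TTTTAAT was present there in 8 of 23 protein-coding genes called lower (34.8%) and in 3 of 39 called higher (7.69%). Over all 5850 the share was 19.1%. These shares are descriptions without a test, and a match does not show that a site is used.

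Fth1, which encodes the iron-storing heavy chain of ferritin, had 439.8, 516 and 502 FPKM in polysome libraries A, B and C and 123, 141 and 119.7 FPKM in the non-polysome libraries (log2 fold change 1.93 ± 0.17 SE, adjusted p = 0.0193). The groups were far apart and the spread within each was small. The gene lies at chr19:9980600-9985100 (GRCm38). Its partner Ftl1, the ferritin light chain gene, had 169, 311 and 185 FPKM against 75.4, 125 and 77.7 FPKM, also without overlap, but did not pass the test (1.24 ± 0.32, adjusted p = 0.147), and was chosen after its values had been seen. Gm8797, annotated as protein-coding, was 3.31-fold higher (176 ± 38.5 against 52.8 ± 9.66 FPKM, SD, n = 3 libraries per fraction, adjusted p = 0.0313). Fth1 and Gm8797 were the only protein-coding genes called higher that reached a mean of 10 FPKM. Gnas, which encodes the stimulatory G protein alpha subunit, stood at 7.85 ± 1.0024 against 1.83 ± 0.239 FPKM (4.29-fold higher, adjusted p = 0.0444), and was picked out after its values had been seen.

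Of the genes called higher near the floor, the extracellular matrix gene Mfap4 had 4.67, 6.05 and 2.76 FPKM in polysomes and the 0.01 floor in all 3 non-polysome libraries, and was chosen after its values had been seen. Aurkaip1, which encodes a mitochondrial ribosome protein, had 3.06, 1.62 and 4.74 FPKM in polysomes against the same floor. Tmub1, a membrane protein gene with a ubiquitin-like domain, had 2.06, 3.36 and 3.88 FPKM. No fold change is given for these, since the lower group is listed at the floor in every library.

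Among the transcripts that are not protein-coding, the pseudogenes Gm6981 and Gm1821 and the unclassified transcript Gm36958 were called higher. Gm1821 reached 2164 ± 402 FPKM in polysomes and 588 ± 106 outside them (3.68-fold, adjusted p = 0.0199). Gm36958 had 1529 ± 41.998 against 624 ± 59.8 FPKM, and Gm6981 24.1 ± 7.22 against 0.224 ± 0.214 FPKM. On the other side the pseudogenes Gm12346, Gm9892, Gm11448 and Eif4a-ps4 had log2 fold changes of -4.52, -4.20, -2.80 and -2.53. Pseudogene values are uncertain, because reads from a near-identical parent gene can be assigned to a copy.

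Among called protein-coding genes that reached 10 FPKM, the largest fall was that of Ssb, which encodes the La RNA-binding protein. It had 10.2, 7.49 and 13.4 FPKM outside polysomes and 0.506, 0.213 and 1.21 FPKM within them (log2 fold change -4.31 ± 0.70 SE, adjusted p = 0.0468). Hsp90aa1, the inducible cytosolic HSP90 gene, had 23.2, 23.3 and 36.3 FPKM outside polysomes against 0.766, 3.17 and 1.06 FPKM (-4.30 ± 0.58, adjusted p = 0.0263). In both genes the highest polysome library was well under the lowest non-polysome library. Taz, the gene of the cardiolipin-remodelling enzyme tafazzin, fell from 31.7 ± 4.07 to 3.92 ± 1.21 FPKM (8.37-fold lower, adjusted p = 0.0193).

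Arl6ip1, which shapes endoplasmic reticulum tubules, had 226, 171 and 139 FPKM outside polysomes and 29.7, 28.7 and 33.8 FPKM within them (log2 fold change -2.51 ± 0.24 SE, adjusted p = 0.0193). Polysome values were nearly level across the 3 libraries. Mphosph6, an exosome-associated gene, fell from 133 ± 52.8 to 18.8 ± 8.36 FPKM (7.05-fold lower, adjusted p = 0.0444). Kbtbd8, a substrate adaptor of CUL3 ubiquitin ligase, was 7.46-fold lower (adjusted p = 0.045), the nucleolar gene Rsl1d1 5.38-fold lower (0.0362) and the mitochondrial import co-chaperone gene Tomm34 5.31-fold lower (0.0411).

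The most abundant transcripts called lower were AU022751, with 3349, 2304 and 3924 FPKM outside polysomes and 859, 643 and 596 FPKM within them, and Tcl1b1, of an oocyte-expressed family related to the Tcl1 oncogene, with 1762, 2027 and 1528 FPKM and 428, 474 and 286 FPKM. Both were about equally depleted (4.51-fold and 4.55-fold lower, adjusted p = 0.0199 and 0.0193). Ppp2r1a, the scaffold of protein phosphatase 2A, had 39.5 ± 4.05 and 11.977 ± 0.556 FPKM (3.29-fold lower, adjusted p = 0.0211). Actr1a, a dynactin subunit, was 3.19-fold lower and Nip7, a factor for the large ribosomal subunit, 3.63-fold lower (adjusted p = 0.0395 and 0.0448). Except Nip7, the genes of this paragraph were picked out after their values had been seen. Levels of all called genes above 10 FPKM are plotted library by library.

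**Figure D2:**
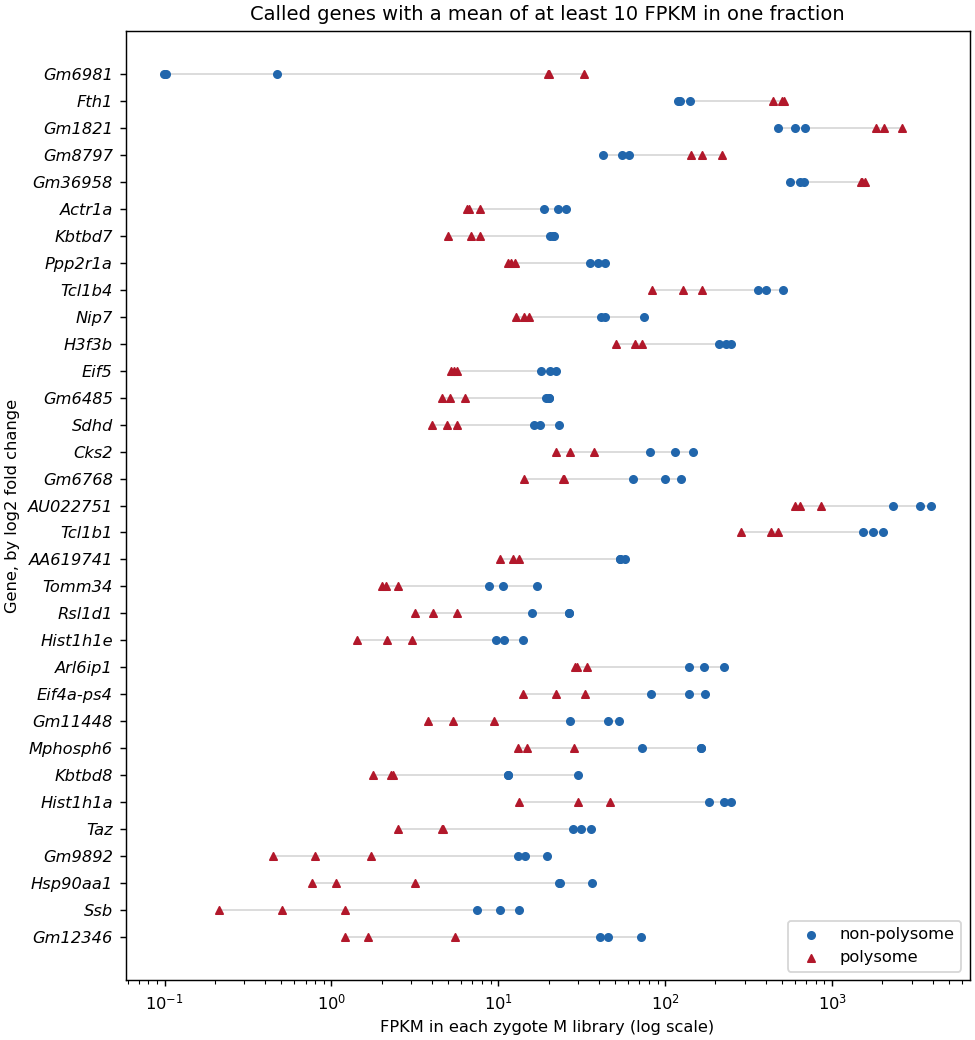
FPKM on a log scale in each of the 3 non-polysome libraries (blue circles) and 3 polysome libraries (red triangles) of zygote M, for the 33 called genes whose mean reaches 10 FPKM in one fraction, ordered by log2 fold change. In the 28 genes called lower the polysome libraries lie to the left of all non-polysome libraries, and in the 5 called higher to the right.

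Histone mRNAs were mostly lower in polysomes. Over all 7601 tested genes the median log2 fold change was 0.26, and 4432 lay above 0. Of the 64 replication-dependent histone genes in the table, 26 were tested, 18 of them had a log2 fold change below 0, and their median was -1.15. In 9 the polysome libraries lay wholly below the non-polysome libraries, in 0 above, and 2 were called, both linker histones, where 11.5% of all tested genes lay wholly below and 0.408% were called lower. Hist1h1a had 225, 249 and 184 FPKM outside polysomes and 29.9, 46.9 and 13.2 FPKM within them (log2 fold change -3.04 ± 0.46 SE, adjusted p = 0.0395), and Hist1h1e had 9.67, 14.1 and 10.8 FPKM and 1.43, 3.03 and 2.15 FPKM (-2.44 ± 0.40, adjusted p = 0.0474). These are the mRNAs whose stem-loops are printed above. The library kit primes cDNA at poly(A), which mRNAs that end at the stem-loop lack, so these values come from polyadenylated or misprimed RNA. How far they stand for the stem-loop pool was not tested. The Hist1h1a transcript used here ends with the printed stretch, whereas that of Hist1h1e runs on for 1146 bases beyond it. The core histone genes Hist1h2ap (168 outside and 33.020 FPKM within polysomes on average) and Hist2h2aa1 (142 and 28.975 FPKM) did not overlap but missed the threshold (adjusted p = 0.102 and 0.0981). Histone genes are near-identical copies of each other, so reads may be split among them.

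Among 17 tested genes of oocyte histone variants and chromatin proteins, 5 had a log2 fold change above 0, next to 4432 of all 7601 tested genes. The median of the 17 was -0.40. H3f3b, 1 of the pair of genes for histone H3.3, was called, with 210.1, 246 and 230.5 FPKM outside polysomes and 72.2, 50.4 and 65.8 FPKM within them (log2 fold change -1.88 ± 0.21 SE, adjusted p = 0.0193). H2afz, the H2A.Z gene, had 48.2, 172 and 34.4 FPKM against 17.2, 29.3 and 15.7 FPKM, and with library B far above the other non-polysome libraries it did not pass (-1.73 ± 0.62, adjusted p = 0.283). H1foo, the oocyte linker histone, had 78.9 ± 35.6 FPKM in polysomes and 81.7 ± 38.6 outside them (adjusted p = 0.998), and Npm2, the egg nucleoplasmin, 4.74 ± 0.145 FPKM in polysomes and 2.36 ± 1.18 outside them (adjusted p = 0.369). Cenpa, which marks the centromere, had 24.5, 24.4 and 22.6 FPKM against 10.8, 6.96 and 9.52 FPKM and came near the threshold (-1.42 ± 0.26, adjusted p = 0.0738).

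Of 44 tested genes of mitotic entry and exit, 1 was called, next to 1.32% of all tested genes, and the median log2 fold change was -0.35. Cks2, a small subunit of cyclin-dependent kinases, had 147, 114 and 81.1 FPKM outside polysomes and 37.3, 27.033 and 22.3 FPKM within them (log2 fold change -1.97 ± 0.31 SE, adjusted p = 0.0444). Cdc20, the activator of the anaphase-promoting complex that starts anaphase, had 214, 111 and 172 FPKM in polysomes and 189, 102 and 171 FPKM outside them, and its groups overlapped (0.10 ± 0.34, adjusted p = 0.896). Pttg1, which encodes securin, the inhibitor that Cdc20 marks for destruction, was among the most abundant mRNAs in both fractions, with 2939, 2166.4 and 2846 FPKM and 2436, 1836 and 1948 FPKM (0.35 ± 0.20, adjusted p = 0.47). The cyclin genes Ccnb1 (98.8 ± 39.8 FPKM in polysomes and 122 ± 46.4 outside them) and Ccna2 (17.3 ± 3.9974 FPKM in polysomes and 30.2 ± 12.3 outside them) did not pass either (adjusted p = 0.756 and 0.465). Plk1, a kinase of mitotic entry, had 43.2 ± 9.08 FPKM in polysomes and 26.8 ± 14.9 outside them (adjusted p = 0.485), and the kinase gene Cdk1 2.01 ± 0.285 FPKM in polysomes and 5.77 ± 1.46 outside them without overlap (adjusted p = 0.137). Pttg1, Ccnb1, Plk1 and Cdk1 were chosen after their values had been seen.

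Called genes were also few among all tested genes (1.32%), so the counts for the translation apparatus do not set it apart. None of 58 tested cytosolic ribosomal protein genes was called, and 38 were above 0, next to 4432 of all 7601 tested genes. Their median log2 fold change was 0.48 (0.14 among those whose geometric mean reached 1 FPKM). None of 63 mitochondrial ribosomal protein genes was called (median 0.35). Of 40 translation factor genes 1 was called, Eif5, the GTPase-activating factor of start codon recognition, with 22.3, 18.1 and 20.4 FPKM outside polysomes and 5.24, 5.45 and 5.66 FPKM within them (log2 fold change -1.89 ± 0.25 SE, adjusted p = 0.0248). The median of that list was 0.12, and under quantile normalization it was -0.05. Of 64 nuclear genes of oxidative phosphorylation (median 0.03) 1 was called, Sdhd, a membrane anchor of complex II, at 18.999 ± 3.56 FPKM outside and 4.87 ± 0.809 FPKM within polysomes (3.90-fold lower, adjusted p = 0.0354). The named ribosomal protein gene Rpl35 lay at 0.765 ± 0.381 FPKM in polysomes and 0.799 ± 0.496 outside them (adjusted p = 0.948), and the RNA polymerase II subunit gene Polr2i at 10.8 ± 1.02 FPKM in polysomes and 8.11 ± 2.36 outside them (adjusted p = 0.528).

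The maternal effect genes of the subcortical maternal complex and the oocyte Nlrp family had a median log2 fold change of -0.93 over 15 tested genes. Of these, 13 were below 0 and 2 above, next to 4432 of all 7601 tested genes above 0, and 0 were called. Ooep, a core member of that complex, had 113, 95.5 and 101 FPKM in polysomes and 121, 121 and 104 FPKM outside them (-0.16 ± 0.18, adjusted p = 0.696). Zbed3, a further member, had an adjusted p of 0.0411 but a log2 fold change of -0.96, just short of the fold threshold. Tubulins and kinesins had a median above 0, at 0.73 over 24 tested genes. Of these, 7 were without overlap on the polysome side (11.9% of all tested genes), 1 on the other (11.5%) and 0 were called (1.32%). Storage and clearance factors of maternal mRNA had a median of 0.20 over 30 genes, and Zar1, an RNA-binding protein of that class, had 71.4 ± 18.7 FPKM in polysomes and 64.9 ± 14.9 outside them (adjusted p = 0.846). Mos, the kinase of meiotic arrest, spread widely outside polysomes, at 18.3, 59.049 and 4.76 FPKM against 13.2, 7.74 and 15.6 FPKM within them (-0.57 ± 0.88, adjusted p = 0.785).

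Of 21 stress response and heat shock genes, Hsp90aa1 was called and no other, next to 1.32% of all tested genes, and the median was 0.33. Atf4, a transcription factor known for translational control under stress, had 101 ± 10.1 FPKM in polysomes and 62.5 ± 16.1 outside them without overlap (adjusted p = 0.268), and was chosen after its values had been seen. Proteasome genes had a median of -0.30 over 35 genes and DNA replication licensing genes -0.76 over 19, with 0 called in either. No mitochondrially encoded gene is in the table. Quantile normalization moved the median of all genes from 0.26 to 0.05.

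By biotype, 39 of 6006 tested protein-coding genes were called higher and 23 lower, next to 0.908% and 0.408% of all tested genes. The median log2 fold change of protein-coding genes was 0.25. Long intergenic noncoding RNAs had a median of 0.89 over 225 genes and antisense RNAs 0.81 over 155. In both classes values at the floor were more frequent outside polysomes (12.9% and 16.989%) than within them (0.741% and 1.94%), and among genes whose geometric mean reached 1 FPKM the medians were 0.54 over 88 and 0.22 over 32 genes. The share of that floor in the difference was not tested. The kit used does not mark strand, so reads of an antisense RNA and of the gene opposite it cannot be told apart. The genes called lower had a median transcript GC content of 45.4% and those called higher 55.4%, against 51.6% over all tested genes. Across 5724 protein-coding genes tested here and in interphase zygotes, GC content and log2 fold change had a Spearman rho of 0.255 in zygote M and 0.0323 in interphase zygotes. These points share their libraries, so no p is given.

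To ask whether the distribution between fractions changed from interphase to M-phase, the log2 fold change of zygote M was compared with that of the interphase zygote in 1 fit of 12 libraries. The interphase libraries are letters B, C and D, because both interphase zygote samples of letter A have no column of values. For that reason 36 of the 38 samples of the series have values. The cell cycle genes Cdc20 and Pttg1, lower in polysomes than outside them in interphase, had similar means in both fractions in M-phase. Genes of short proteins had a low median in interphase and one above 0 in M-phase. Arl6ip1, Hsp90aa1, Psma7 and Hist1h1a moved the other way. Of 8661 tested genes, 358 had a higher difference in zygote M (4.13%) and 44 a lower one (0.508%), 4.64% in all. In 64 of the 358 and 0 of the 44, all 3 zygote M non-polysome values were at the 0.01 floor. The median difference over all genes was 0.64 log2 units, and quantile normalization set it to -0.04 and gave 171 higher and 97 lower calls, 161 and 41 of them among the 358 and 44. Without non-polysome library A, B or C of zygote M there were 671, 822 or 759 calls, and without interphase polysome library B or C, or interphase non-polysome library D, 221, 203 or 262. In a fit of all 36 libraries 18 genes were higher and 0 lower, so each fall named below lost its call there. Of the rises named below, Cdc20, Pttg1 and Rps9 kept theirs. For the rises of Cks1b, Anapc16, Tcl1 and Tcl1b2 the outcome in that fit is not given here. In interphase zygotes on their own, 352 of 9664 genes were called higher in polysomes (3.64%) and 1198 lower (12.4%), 16% in all.

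Cdc20 had 2.35 ± 0.903 FPKM in polysomes and 41.4 ± 6.71 outside them in interphase (SD, n = 3) and 166 ± 51.5 FPKM in polysomes and 154 ± 45.7 outside them in zygote M, a difference between stages of 4.30 ± 0.48 SE, adjusted p = 0.00109. Every M-phase polysome library was above every interphase polysome library. Pttg1 had 199 ± 82.4 FPKM in polysomes and 1004 ± 462 outside them in interphase and 2650.4 ± 422 FPKM in polysomes and 2073 ± 319 outside them in zygote M (2.70 ± 0.51 SE, adjusted p = 0.0145). Both kept their call when any 1 of the 12 libraries was left out and under quantile normalization.

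Cks2, which was lower in polysomes in zygote M, was lower still in interphase (1.18 ± 0.153 FPKM in polysomes and 16.035 ± 3.56 outside them), and the difference was 1.77 ± 0.41 SE, adjusted p = 0.0355. Cks1b, its paralog, had a difference of 1.96 (adjusted p = 0.013), and Anapc16, a subunit of the anaphase-promoting complex, 1.24 (adjusted p = 0.0227, and 0.0513 with the replicate block, which ended its call). In all, 5 of 47 tested genes of mitotic entry and exit had a higher difference (4.13% of all tested genes) and 1 a lower one (0.508%), Cdk1, at -1.91 ± 0.37 SE, adjusted p = 0.015. Under quantile normalization the counts were 4 and 2. Ccnb1 (-0.59 ± 0.53 SE, adjusted p = 0.622), Ccna2 (0.78 ± 0.52 SE, adjusted p = 0.485) and Plk1 (0.49 ± 0.57 SE, adjusted p = 0.725) did not pass. Cks2 kept its call in 5 of the 12 fits that left out a library, and the other called members named here were chosen after their values had been seen.

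Among called protein-coding genes that reached 10 FPKM in a group, the largest positive difference was that of Exosc6, a subunit of the RNA exosome (7.98 ± 1.64 SE, adjusted p = 0.0209). It had 4.49 ± 2.39 FPKM in polysomes and 12.7 ± 7.39 outside them in zygote M and 0.111 ± 0.175 FPKM in polysomes and 21.6 ± 5.79 outside them in interphase, where polysome values reached the floor. Rps12-ps3 (4.14 ± 0.80 SE, adjusted p = 0.0154) and the ribosomal protein gene Rps9 (3.69 ± 0.72 SE, adjusted p = 0.0164) followed Cdc20 in size. Rps12-ps3 is annotated as protein-coding but carries the symbol of a pseudogene. Reads from a near-identical parent gene can be assigned to such a copy. Rps9 was low in zygote M, at 0.662 ± 0.520 in polysomes and 0.0756 ± 0.0142 outside them, and it lost its call under quantile normalization. Rps12-ps3 lost its call with the replicate block (adjusted p from limma = 0.0526).

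Another 4 genes above 10 FPKM shared the pattern of Cdc20 and were chosen after their values had been seen. Fpgs, which encodes the enzyme that retains folate in cells, had 2.39 ± 0.389 FPKM in polysomes and 22.2 ± 4.46 outside them in interphase and 57.2 ± 10.8 FPKM in polysomes and 55.1 ± 15.976 outside them in zygote M (3.29 ± 0.37 SE, adjusted p = 0.00117). Stoml2, of the mitochondrial inner membrane, had 1.56 ± 0.374 FPKM in polysomes and 15.3 ± 2.40 outside them in interphase, and 37.8, 37.5 and 30.7 FPKM in polysomes and 47.5, 47.4 and 31.8 FPKM outside them in zygote M (3.07 ± 0.35 SE, adjusted p = 0.00117). The homeobox gene Obox5 had a difference of 3.20 ± 0.52 SE, adjusted p = 0.00664, and Vps72, a chromatin remodelling subunit that handles H2A.Z, 2.93 ± 0.31 SE, adjusted p = 0.000924. Of these, Vps72 was the only one with higher polysome than non-polysome values in every zygote M library (97.2, 88.8 and 96.2 FPKM against 46.3, 33.4 and 41.4 FPKM). Cdc20 and Fpgs hold the TTTTAT letters printed above. TTTTAT or TTTTAAT was found in 52 of 253 protein-coding genes with a higher difference (20.6%). It was found in 4 of 37 with a lower one (10.8%), against 18.9% of 6777 tested.

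On the other side, Arl6ip1 had more RNA in interphase polysomes than outside them (129 ± 9.73 FPKM in polysomes and 77.976 ± 13.7 outside them, adjusted p = 0.0203, short of the fold threshold) and was lower in M-phase polysomes, a difference of -3.25 ± 0.28 SE, adjusted p = 0.000359. Its call held in all 12 fits that left out a library but not in the fit of all 36 (adjusted p = 0.0707). Pja1, a RING-type ubiquitin ligase gene, had the largest negative value among called protein-coding genes that reached 10 FPKM (-4.08 ± 0.91 SE, adjusted p = 0.0296). It had 22.1 ± 1.77 FPKM in polysomes and 5.85 ± 3.60 outside them in interphase. In zygote M it had 3.37 ± 1.96 FPKM in polysomes and 12.4 ± 7.59 outside them, and its call was kept in 7 of 12 fits. Hsp90aa1 had 9.45 ± 0.984 FPKM in polysomes and 24.7 ± 4.39 outside them in interphase (-2.92 ± 0.64 SE, adjusted p = 0.027), so it was depleted from polysomes at both stages and more so in M-phase, with the call kept in 5 of 12 fits. Psma7, a proteasome alpha subunit, had 72.9 ± 18.2 FPKM in polysomes and 59.1 ± 8.14 outside them in interphase and 10.4 ± 5.08 FPKM in polysomes and 53.3 ± 18.9 outside them in zygote M (-2.74 ± 0.58 SE, adjusted p = 0.0238, kept in 8 of 12). Hist1h1a (-2.19 ± 0.51 SE, adjusted p = 0.0388, kept in 4 of 12) also differed, while Hist1h1e (-1.67 ± 0.52 SE, adjusted p = 0.111) did not pass. Fth1 in interphase had 229.8 ± 45.6 FPKM in polysomes and 121 ± 11.5 outside them (adjusted p = 0.0162, short of the fold threshold), and its difference was 1.02 ± 0.23 SE, adjusted p = 0.0325, a call kept in 4 of 12 fits and lost under quantile normalization. With the replicate block Pja1, Hsp90aa1 and Fth1 lost their call (adjusted p from limma = 0.0931, 0.0621 and 0.0537).

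**Figure D3:**
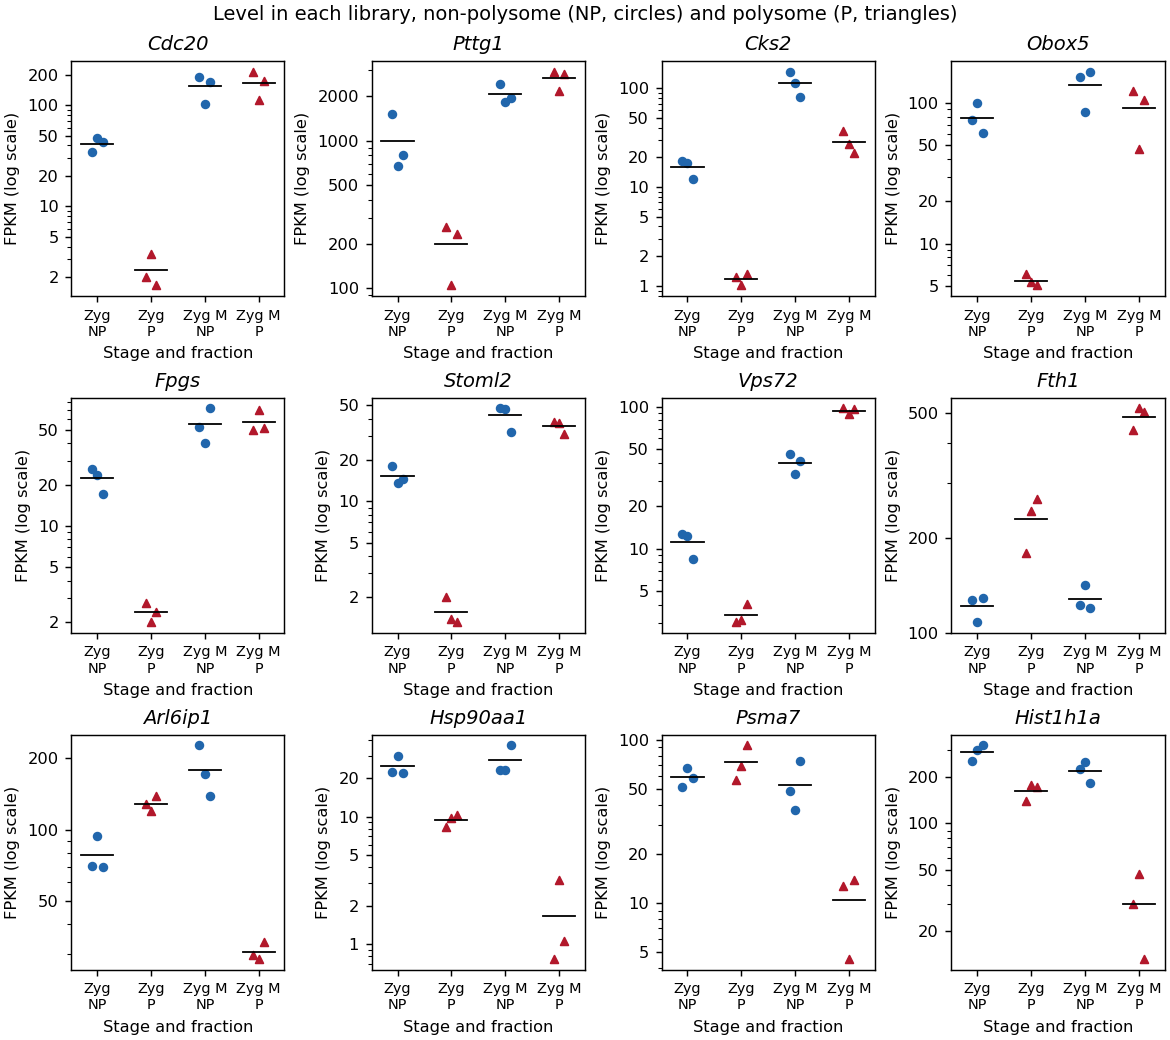
FPKM on a log scale in each library of interphase zygotes (Zyg) and zygote M (Zyg M), with non-polysome libraries (NP) as blue circles, polysome libraries (P) as red triangles and the mean of 3 as a bar. In the first 7 panels the interphase polysome libraries lie far below the others, and in the last 4 the M-phase polysome libraries do.

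The stages were also compared by the length of the encoded protein. Among 603 genes of proteins under 150 residues that were tested at both stages, the median log2 fold change was -0.87 in interphase and 0.17 in zygote M. For 2263 genes of 300 to under 600 residues the medians were 0.01 and 0.33, and for 239 genes of at least 1200 residues -0.15 and -0.03. In interphase 221 of the 603 short genes (36.7%) were called lower, against 215 of the 2263 (9.50%) and 12.4% of all genes tested at that stage. In zygote M 4 (0.663%) and 8 (0.354%) were called lower, near the 0.408% of all tested genes. The median SD per gene in the limma fit was 1.05 log2 units in zygote M and 0.46 in interphase zygotes. How far that spread lowered the zygote M shares was not tested. The difference between stages was called higher for 70 of 697 tested genes under 150 residues (10.0%), for 73 of 2721 of 300 to under 600 (2.68%) and for 4 of 311 of at least 1200 (1.29%), next to 4.13% of all tested genes. Under quantile normalization these shares were 4.88%, 0.772% and 0.322%, in the same order. Where their geometric mean reached 1 FPKM the short genes had medians of -0.92 in interphase and 0.01 in zygote M (409 genes). Protein length and log2 fold change had a Spearman rho of -0.0246 in zygote M and 0.225 in interphase over 5724 genes, again without a p. Short proteins were also below longer ones in MII, with medians of -0.85 under 150 residues and 0.27 for 300 to under 600.

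**Figure D4:**
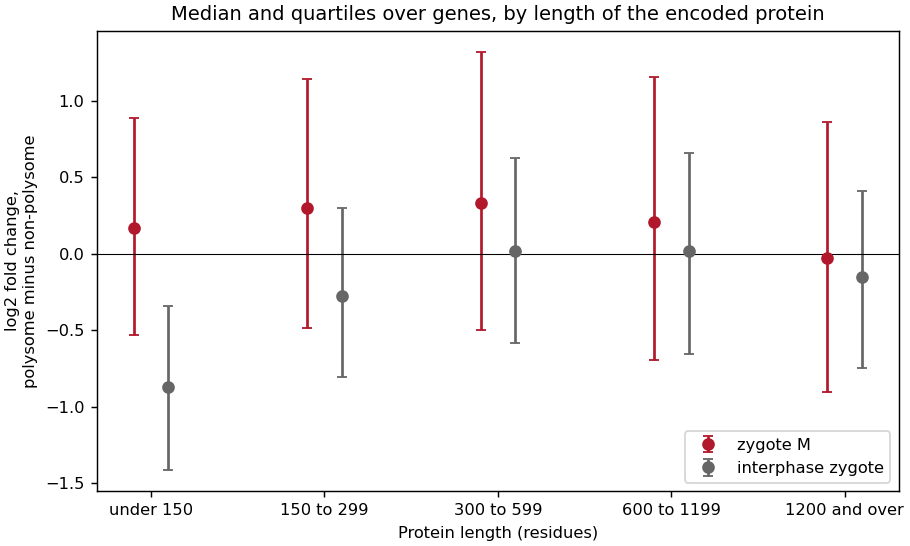
Median log2 fold change of polysome over non-polysome by length of the encoded protein, in zygote M (red) and interphase zygotes (grey), over genes tested at both stages, with bars from the lower to the upper quartile of genes. The interphase medians rise from -0.87 under 150 residues to 0.01 for 300 to under 600 residues, and the zygote M medians lie between -0.03 and 0.33.

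Several gene lists had a like shift of their median. Over genes tested at both stages, the median log2 fold change of cytosolic ribosomal protein genes was -0.83 in interphase and 0.48 in zygote M (56 genes), that of oxidative phosphorylation genes -1.04 and 0.03 (64), that of mitochondrial ribosomal protein genes -0.45 and 0.35 (63) and that of Sm and LSm genes of the spliceosome -1.23 and 0.37 (19). Over all 7178 genes tested at both stages the medians were -0.21 and 0.28. In the test of the difference 8 of 75 cytosolic and 8 of 71 mitochondrial ribosomal protein genes were higher. So were 6 of 74 oxidative phosphorylation genes and 3 of 21 Sm and LSm genes, next to 358 of 8661 genes (4.13%). Among these lists 1 mitochondrial ribosomal protein gene was lower, next to 0.508% of all genes tested. Under quantile normalization 3, 4, 2 and 3 were higher, next to 171 of all genes. Histone genes had low medians at both stages (-1.50 and -1.15, 26 genes), and over the 34 tested for the difference its median was 1.04 (0.69 under quantile normalization), with 0 called higher and 1 lower. Proteasome genes went from 0.23 to -0.16 (34 genes) and licensing genes from -0.10 to -0.76 (19 genes). In the difference 2 of 37 and 1 of 23 were called higher (4.13% of all tested genes) and 1 and 0 lower (0.508%). Over all proteasome and licensing genes in that test, the median of the difference had the other sign, 0.29 and 0.20, and under quantile normalization it was -0.46 and -0.38, against 0.64 and -0.04 over all genes.

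**Figure D5:**
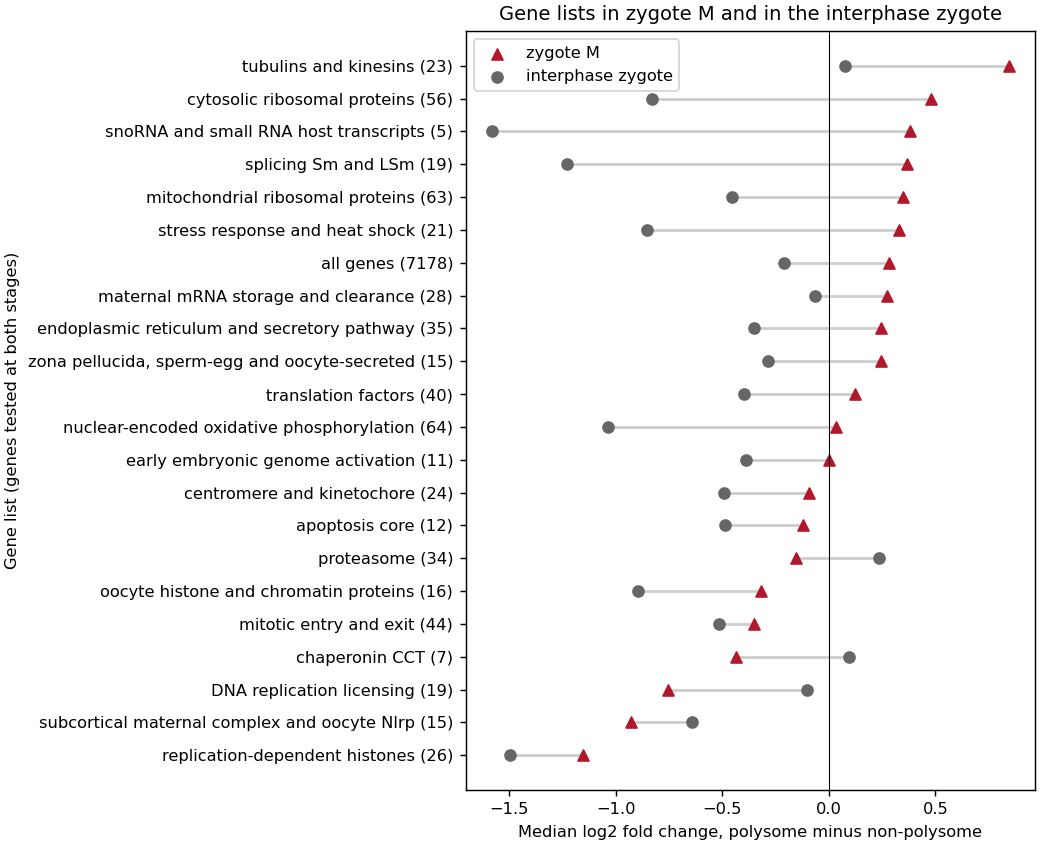
Median log2 fold change of polysome over non-polysome for each gene list in zygote M (red triangles) and interphase zygotes (grey circles), with the number of genes tested at both stages in parentheses. Cytosolic ribosomal protein genes lie at -0.83 in interphase and 0.48 in zygote M, while histone genes are low at both.

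The same comparison was made with MII oocytes, which are in meiotic M-phase, and with two-cell M embryos, in the second mitosis. Both use the zygote M libraries that entered the comparison with interphase zygotes, so the 3 sets of values share them. In MII on its own 110 of 9078 genes were called higher in polysomes (1.21%) and 373 lower (4.11%), 5.32% in all. Against MII, 213 of 8435 genes had a higher difference in zygote M (2.53%) and 42 a lower one (0.498%), 3.02% in all. In 37 of the 213 and 0 of the 42, all 3 zygote M non-polysome values were at the floor. Without non-polysome library A, B or C of zygote M the total was 402, 490 or 464, without its polysome library A 164, and without MII polysome library A or C 127 or 144. Among called protein-coding genes that reached 10 FPKM, Tomm34, Taz, Hsp90aa1 and Rbbp7 had the largest falls. Their differences were -2.78, -3.34, -3.51 and -2.70 (adjusted p = 0.0119, 0.00321, 0.0318 and 0.0171). Hsp90aa1 lost its call with the replicate block (adjusted p from limma = 0.059). In the fit of all 36 libraries 45 genes were higher and 3 lower, and these 4 falls all lost their call (adjusted p from limma = 0.468, 0.747, 0.473 and 0.702). Taz had 35.5 ± 8.70 FPKM in polysomes and 28.7 ± 1.48 outside them in MII. Pttg1 was again higher in zygote M (2.65 ± 0.25 SE, adjusted p = 0.000817), from 52.5 ± 2.27 FPKM in polysomes and 260.4 ± 51.1 outside them in MII, and kept its call in that fit (adjusted p from limma = 0.013), whereas Cdc20 did not pass (-0.22 ± 0.39 SE, adjusted p = 0.834) at 141 ± 14.2 FPKM in polysomes and 113 ± 10.959 outside them. Polr2i passed as well (1.54 ± 0.32 SE, adjusted p = 0.0291), but not in the fit of all 36 libraries (0.701) or with the replicate block (0.0529).

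Among called protein-coding genes that reached 10 FPKM, the 4 largest positive differences from MII were those of 2310039H08Rik, Aurkaip1, Tmub1 and Lin7b. The zygote M non-polysome values of these genes were at or near the floor, and none of them kept its call in the fit of all 36 libraries. Lin7b, a cell polarity gene, had 6.82 ± 2.04 FPKM in polysomes and 10.5 ± 1.93 outside them in MII and 0.694, 0.838 and 0.536 FPKM in zygote M polysomes.

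In two-cell M on its own 34 of 5809 genes were called higher in polysomes (0.585%) and 56 lower (0.964%), 1.55% in all. Against two-cell M, 16 of 6799 genes had a higher difference in zygote M (0.235%) and 61 a lower one (0.897%), 1.13% in all. This count was unsteady, with 7 to 11 calls without any 1 zygote M polysome library, 38 or 27 without its non-polysome library A or C, and 94 to 186 without any 1 two-cell M library. Quantile normalization left 13 calls and the replicate block left none, with 762 genes at an unadjusted p below 0.05, so no gene named here kept its call under the block. Rplp0 had a higher difference, at 3.91 ± 0.51 SE, adjusted p = 0.00895. Rps9 (5.38) and Rps25 (6.19) lost their call under quantile normalization (adjusted p from limma = 0.416 and 0.449), as did Gatsl3 and Taf6 (0.211 and 0.123) of the falls below. Rplp0, a stalk protein of the large subunit, had 43.9 ± 5.30 FPKM in polysomes and 17.981 ± 3.50 outside them in zygote M, compared with 322 ± 169.8 FPKM in polysomes and 1830.2 ± 287 outside them in two-cell M. Ttc30b, of intraflagellar transport, was near the floor in all zygote M libraries. Among called protein-coding genes that reached 10 FPKM, Hcfc1r1, Gatsl3, Arf5 and Taf6 had the lowest values (-9.43, -8.36, -8.26 and -7.89). In Arf5, a small GTPase gene, zygote M had 77.3, 139 and 59.1 FPKM in polysomes and 101, 132 and 66.9 FPKM outside them, while two-cell M had 26.997 ± 19.8 FPKM in polysomes and 0.0884 ± 0.0389 outside them. In all 4 the mean non-polysome level in two-cell M was 0.104 FPKM or lower, and that of Hcfc1r1 was at the floor in every library.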

How the data were processed

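The methods of the study describe cycloheximide treatment before lysis, written there for oocytes. Embryos were lysed and run on sucrose gradients cut into 10 fractions, of which 5 were pooled for the polysome library. Libraries were made with a SMART-seq v4 kit, which primes cDNA at poly(A), and Nextera XT, and sequenced as paired ends. Per the submitters' notes, the authors trimmed reads with Trim Galore 0.4.1, aligned them to GRCm38 with STAR 2.5.3a and quantified genes in Partek Flow. The deposited values are FPKM per gene and library, so read depth is unknown and no counting interval is given. They were taken to log2 with nothing added. Genes whose geometric mean in the libraries compared reached 0.1 FPKM were tested with limma 3.58.1 in R 4.3.3 (trended empirical Bayes, two-sided, Benjamini-Hochberg adjustment over all genes tested), and differences between stages as an interaction in 1 fit of 12 libraries. The genomic test built into Partek was not used here. The fit between the zygote M fractions was tested on simulated data with the spread of the deposited values. It recovered 13 of 100 planted changes of 2 log2 units and 43 of 100 of 4 log2 units, with 8 other genes called. With no change planted, 2 genes were called. A gene that did not pass may therefore still differ by such an amount.

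Named genes were the 10 largest rises and the 10 largest falls among protein-coding genes called at 10 FPKM or more, the genes that the study names, up to 4 called members of each list, 4 of other biotypes and 4 of each difference in each direction, and all other genes were chosen after their values were seen. Members and lists were chosen with earlier results of these data known. Transcript features came from GENCODE M21, in which 22193 of 23125 symbols matched. Motif windows needed to lie in the last 100 bases of the 3′ UTR for polyadenylation elements. Pairing by letter was taken from the methods, in which both fractions come from each gradient. Deviations of same-letter libraries of zygote M correlated at 0.0475 (A), 0.171 (B) and 0.129 (C), those of different letters at -0.150 to 0.0646, and 5 of 6 libraries correlated best with their own letter. Alternatives were another value added, other filters, other normalizations, a fit of all 36 libraries, a replicate block and leaving out each library.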

Additional observations from a re-analysis of the deposited data

Results flagged for a closer look

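The polysome minus non-polysome difference was tested between zygote M and 3 other stages by an interaction term in limma, with Benjamini-Hochberg adjustment. It differed for 402 genes from interphase zygotes, for 255 from MII and for 77 from two-cell M. The zygote M libraries are shared by these comparisons.

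From interphase zygotes, the differences of the named genes were 7.98 for Exosc6, 4.30 for Cdc20, 4.14 for Rps12-ps3 and 3.69 for Rps9 on the log2 scale, and -4.08 for Pja1, -3.25 for Arl6ip1, -2.92 for Hsp90aa1 and -2.74 for Psma7. Polysome values of Exosc6 in interphase were 0.01, 0.314 and 0.0101 FPKM, at or near the floor of 0.01 in 2 of 3 libraries, so its size rests on values near that floor.

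From MII they were 8.55 for 2310039H08Rik, 8.13 for Aurkaip1, 7.51 for Tmub1 and 6.74 for Lin7b, and -3.51 for Hsp90aa1, -3.34 for Taz, -2.78 for Tomm34 and -2.70 for Rbbp7. In zygote M, Aurkaip1, Tmub1 and Lin7b were at the floor in all 3 non-polysome libraries and 2310039H08Rik in 2 of them, so these 4 values are set by the floor, and the genes passed the minimum level through the groups where they were high. From two-cell M they were 9.28 for Ttc30b, 6.19 for Rps25, 5.38 for Rps9 and 3.91 for Rplp0, and -9.43 for Hcfc1r1, -8.36 for Gatsl3, -8.26 for Arf5 and -7.89 for Taf6. Hcfc1r1 was at the floor in all 3 two-cell M non-polysome libraries, Ttc30b in all 3 zygote M polysome libraries, and Rps25 in 2 of 3 zygote M non-polysome libraries, so the sizes of these 3 depend on the floor as well. Gatsl3, Arf5 and Taf6 had low two-cell M non-polysome means, of 0.104 FPKM or lower, and Rps9 had 0.0666, 0.0920 and 0.0682 FPKM in the zygote M non-polysome libraries. None of the 77 calls remained with the replicate block.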

How the results depend on the processing

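Between the zygote M fractions 100 genes were called. The count was 15 with 1 added to each FPKM, 15 with a minimum of 1 FPKM, 61 among protein-coding genes, and 0 to 225 when 1 library was left out. With the replicate letter as a replicate block it was 0, with 1190 genes at an unadjusted p below 0.05. With the block the difference from interphase zygotes gave 349 calls and that from MII 181. The difference from interphase zygotes (402) gave 229 with 1 added, 18 in the fit of all 36 libraries, 258 with the minimum of 1 FPKM and 203 to 822 when 1 library was left out. The difference from MII (255) gave 48 in the fit of all 36 libraries and 127 to 490 when 1 library was left out. The difference from two-cell M (77) gave 43 with 0.1 added, 47 with 1 added, 410 in the fit of all 36 libraries, 116 with the filter over them, 510 without a filter, 13 under quantile normalization, 0 with the replicate block and 7 to 186 when 1 library was left out. The cause of these changes was not tested. Of 2540 values for named genes under the alternatives, 483 lost their call, 9 gained one and 0 changed sign while called. Depth is unknown, so levels near 0.01 FPKM carry no stated precision.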

Other observations

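All 6 tested members of the Tcl1 family, oocyte transcripts of a gene cluster related to the Tcl1 oncogene, had polysome values below the non-polysome values without overlap (11.5% of all tested genes), and 2 were called lower (0.408%), Tcl1b1 and Tcl1b4 (log2 fold change -2.19 and -1.79, adjusted p = 0.0193 and 0.0489). Tcl1 itself was the most abundant, with means of 3659.7 FPKM outside and 2534 FPKM within polysomes (-0.53, adjusted p = 0.189). All 6 were also called lower in interphase (12.4% of all tested genes), and the difference between stages was higher (4.13%) for Tcl1b2 (1.70, adjusted p = 0.0104) and Tcl1 (1.10, adjusted p = 0.0213). The family was chosen after its values had been seen, and its members are similar in sequence, so reads may be split among them.

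The gamma-tubulin genes, whose proteins nucleate microtubules, did not pass the test between the zygote M fractions. Tubg2 had means of 214 FPKM within and 112 FPKM outside polysomes (0.93, adjusted p = 0.0718), and Tubg1 70.6 and 39.7 FPKM (0.84, adjusted p = 0.134). In both the polysome libraries lay wholly above the non-polysome libraries, as in 11.9% of all tested genes. Both were chosen after their values had been seen.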
